A study of Arabidopsis thaliana with 6 samples.

Results

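ER bodies are spindle-shaped compartments of the endoplasmic reticulum, found in *Arabidopsis* and its relatives, that store beta-glucosidases. These enzymes remove glucose from defense compounds such as indole glucosinolates once tissue is damaged, so that enzyme and substrate meet only in broken cells. Seedling epidermis and roots form ER bodies without any stimulus, and in rosette leaves wounding or treatment with jasmonic acid (JA) induces them.

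The 5 genes described here build or fill these compartments, and they fall into a constitutive root group and a leaf, JA-inducible pair. These names are background, since RNA of whole seedlings does not separate organs. The root group holds *NAI1* (AT2G22770), *NAI2* (AT3G15950) and *PYK10* (AT3G09260), and the leaf pair holds *TSA1* (AT1G52410) and *BGLU18* (AT1G52400). *NAI1* encodes the bHLH transcription factor that constitutive ER bodies require. *NAI2* encodes an ER body protein needed for their formation, and *PYK10* (also *BGLU23*) the main beta-glucosidase of seedling and root ER bodies. *TSA1* is the close relative of *NAI2*, and *BGLU18* the relative of *PYK10* that leaf ER bodies hold. *BGLU18* is also known to release abscisic acid (ABA) from its glucose ester. Each of the 5 genes has 1 probe set among the 22746 probe sets compared, which name 13520 genes between them. The 5 genes were chosen by their measured differences between *fbs1-1* and WT on these same arrays, so these values are given as a description, with no test.

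Transcript levels were measured on 6 Affymetrix ATH1 arrays, 3 of *fbs1-1* and 3 of wild type (WT), each hybridized with RNA of 1 pool of whole seedlings. *fbs1-1* is 1 line with a transposon in the first intron of *FBS1*, a stress-induced F-box gene whose product selects proteins for ubiquitination. All seedlings of both genotypes were 12 days old, with 5 days at 24 °C and then 7 days of chilling at 10 °C, and no unchilled arrays were analysed here. The labels give No-0 as the background of both genotypes, but the array names of the 3 WT samples carry the prefix Nd0, so an effect of *FBS1* and any other difference between the lines cannot be told apart. The level of *FBS1* itself was not analysed here, because no table at hand ties a probe set to it. The values are log2 intensities, so a difference of 1 is a factor of 2 in intensity, and differences are *fbs1-1* minus WT throughout. In RNA of whole seedlings, fewer cells of a type and less RNA per cell cannot be told apart.

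The arrays were alike in their general properties. Their medians lay between 2.62 and 2.72, between 40.2% and 40.8% of the values on an array were under 2, and Pearson's r across probe sets within a genotype was between 0.990 and 0.996. Values under 2 are referred to as the low end, since no detection calls were at hand. The median difference over all probe sets was 0.01. By limma, at a Benjamini-Hochberg adjusted p under 0.05, 1.68% of all probe sets were higher and 1.57% were lower in *fbs1-1*.

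The leaf pair was far lower in *fbs1-1* than in WT, while the root group lay at the same level in both genotypes within its spread. *BGLU18* had log2 levels of 5.88, 7.25 and 5.58 on the *fbs1-1* arrays, against 9.41, 9.91 and 9.86 on the WT arrays. The genotypes did not overlap, and 2.16 lay between the highest *fbs1-1* and the lowest WT array. Mean log2 levels were 6.24 ± 0.89 in *fbs1-1* and 9.73 ± 0.28 in WT (SD, n = 3 each), a difference of -3.49 on the log2 scale, or 11.2-fold lower in *fbs1-1*.

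*TSA1* had log2 levels of 3.48, 5.02 and 3.85 on the *fbs1-1* arrays, against 6.15, 6.85 and 7.04 on the WT arrays. Again every *fbs1-1* array was below every WT array, here with a gap of 1.13. The means were 4.12 ± 0.80 in *fbs1-1* and 6.68 ± 0.47 in WT (SD, n = 3 each), a difference of -2.56 on the log2 scale, or 5.92-fold lower in *fbs1-1*. These were the members of the group of 5 whose genotypes did not overlap, and both were lower in *fbs1-1*. Over all probe sets, 8.94% had every *fbs1-1* array below every WT array. As the rule used this contrast, nothing is read from the count of 2 in 5.

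The root group gave the opposite picture. *PYK10* had log2 levels of 10.26, 9.88 and 10.16 on the *fbs1-1* arrays, against 9.97, 9.98 and 10.13 on the WT arrays. The highest and the lowest of these values both came from *fbs1-1*, so the WT arrays lay inside the *fbs1-1* range. The means were 10.10 ± 0.20 in *fbs1-1* and 10.03 ± 0.09 in WT (SD, n = 3 each), a difference of 0.07 on the log2 scale.

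*NAI2* had log2 levels of 6.84, 6.60 and 6.74 in *fbs1-1*, against 6.56, 6.77 and 6.65 in WT. The ranges overlapped for most of their length, and the means of 6.73 ± 0.12 in *fbs1-1* and 6.66 ± 0.10 in WT differed by 0.07 on the log2 scale (SD, n = 3 each). *NAI1*, the regulator of this group, had log2 levels of 3.50, 3.69 and 3.57 in *fbs1-1*, against 3.70, 3.53 and 3.79 in WT. Its means were 3.58 ± 0.10 in *fbs1-1* and 3.68 ± 0.13 in WT, a difference of -0.09 with overlapping arrays. The sign of the *NAI2* and *PYK10* differences depended on which arrays were used. Within the first run of array numbers in the labels (43 and 45, 1 array of each genotype), *NAI2* differed by 0.27 and *PYK10* by 0.29. Within the second run (59 to 62, 2 arrays of each) both differed by -0.04. *NAI1* differed by -0.21 in the first run and -0.04 in the second. The differences of the leaf pair were alike in both runs. They were -2.67 in the first and -2.51 in the second for *TSA1*, and -3.52 in the first and -3.47 in the second for *BGLU18*.

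**Figure D1:**
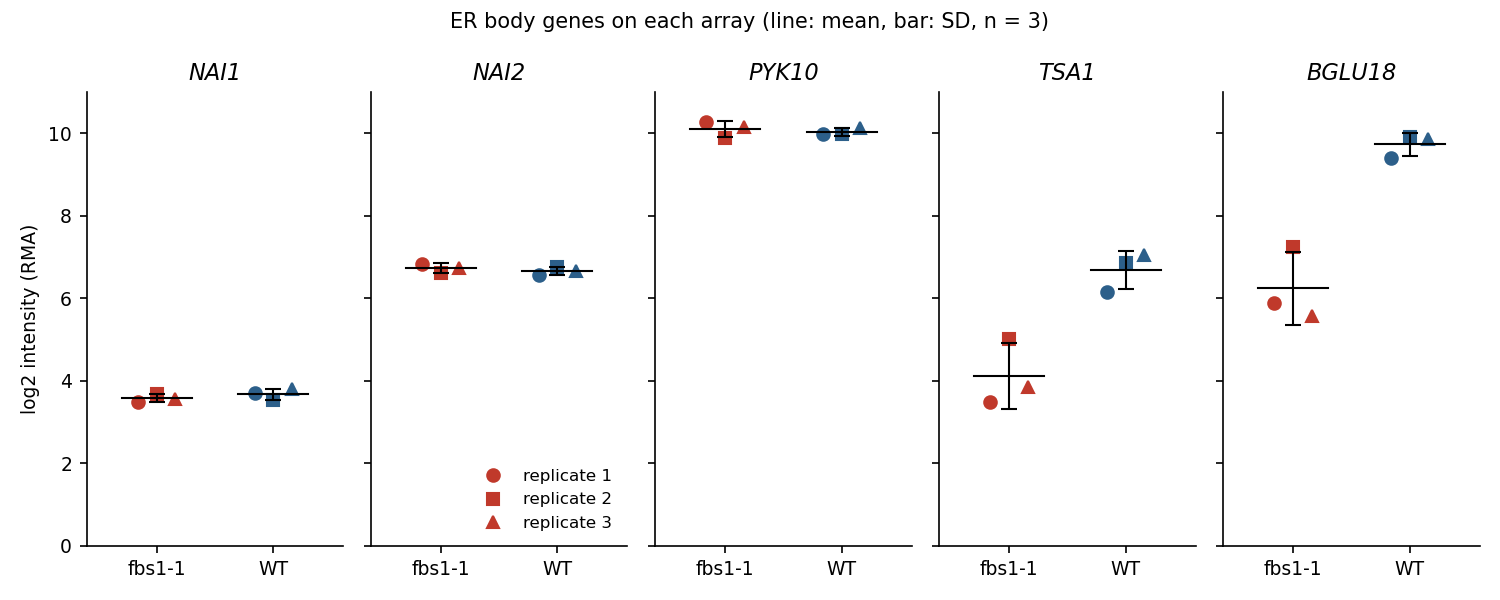
Log2 intensity of the 5 ER body genes on each array, with *fbs1-1* in red left of WT in blue. Symbols mark the replicate, the line is the mean and the bar the SD of 3 arrays. *TSA1* and *BGLU18* lie lower on every *fbs1-1* array, with mean differences of -2.56 and -3.49, whereas the arrays of both genotypes overlap for *NAI1*, *NAI2* and *PYK10*.

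To set the groups against each other within an array, the mean log2 level of *NAI1*, *NAI2* and *PYK10* was subtracted from that of *TSA1* and *BGLU18*. Probe sets differ in how strongly they bind, so the value itself has no meaning and only its change between arrays can be read. It was -2.18, -0.59 and -2.11 on the *fbs1-1* arrays, against 1.03, 1.62 and 1.59 on the WT arrays. The means were -1.63 ± 0.90 in *fbs1-1* and 1.41 ± 0.33 in WT (SD, n = 3 each), so that the leaf pair was lower relative to the root group by -3.04 on the log2 scale, a factor of 8.24. Nearly all of it came from the leaf pair, whose mean differed by -3.03, while the mean of the root group differed by 0.01. Without any 1 array, the contrast lay between -3.56 and -2.76. It was -3.22 within the first run of array numbers and -2.95 within the second.

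The same contrast can be made between relatives of the same kind. *BGLU18* relative to the root enzyme *PYK10* was lower in *fbs1-1* by -3.56 on the log2 scale, a factor of 11.8. *TSA1* relative to the root protein *NAI2* was lower by -2.63, a factor of 6.20. Within the leaf pair, the transcript of the enzyme differed more between genotypes than that of the ER body protein. *BGLU18* minus *TSA1* was 2.41, 2.23 and 1.73 on the *fbs1-1* arrays, against 3.26, 3.06 and 2.82 on the WT arrays, and these did not overlap. Its means were 2.12 ± 0.35 in *fbs1-1* and 3.05 ± 0.22 in WT (SD, n = 3 each), a difference of -0.93 on the log2 scale, and whether the response of the probes at low intensities adds to it was not tested.

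The leaf pair also varied widely among arrays of 1 genotype, most of all in *fbs1-1*. In *fbs1-1*, the SD of *BGLU18* was larger than that of 99.9% of probe sets and the SD of *TSA1* larger than that of 99.8%. In WT, the SD of *TSA1* exceeded that of 98.0% and the SD of *BGLU18* that of 87.4%. The root group showed no such spread. Its SDs exceeded those of 38.3% (*NAI1*), 49.1% (*NAI2*) and 77.8% (*PYK10*) of probe sets in *fbs1-1*, and those of 48.7% (*NAI1*), 34.8% (*NAI2*) and 29.2% (*PYK10*) in WT.

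This spread was shared within the pair. On *fbs1-1* replicate 2, *TSA1* lay 0.90 and *BGLU18* 1.01 above their *fbs1-1* means, and on the other *fbs1-1* arrays both were below. On WT replicate 1, *TSA1* was at -0.53 and *BGLU18* at -0.32 relative to their WT means, and on the other WT arrays both were above. WT replicate 1 and *fbs1-1* replicate 1 form the first run of array numbers. On *fbs1-1* replicate 1, *TSA1* was at -0.64 and *BGLU18* at -0.35 relative to their *fbs1-1* means. The part of the run in this spread was not tested. Of the root group, *PYK10* was at -0.22 and *NAI2* at -0.12 on *fbs1-1* replicate 2, while *NAI1* was 0.10 above its mean there and below it on the other *fbs1-1* arrays. The profiles of *TSA1* and *BGLU18*, each centred within its genotype, had a root mean square difference of 0.24. Even so, the highest *fbs1-1* array stayed below the lowest WT array for both genes of the pair.

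**Figure D2:**
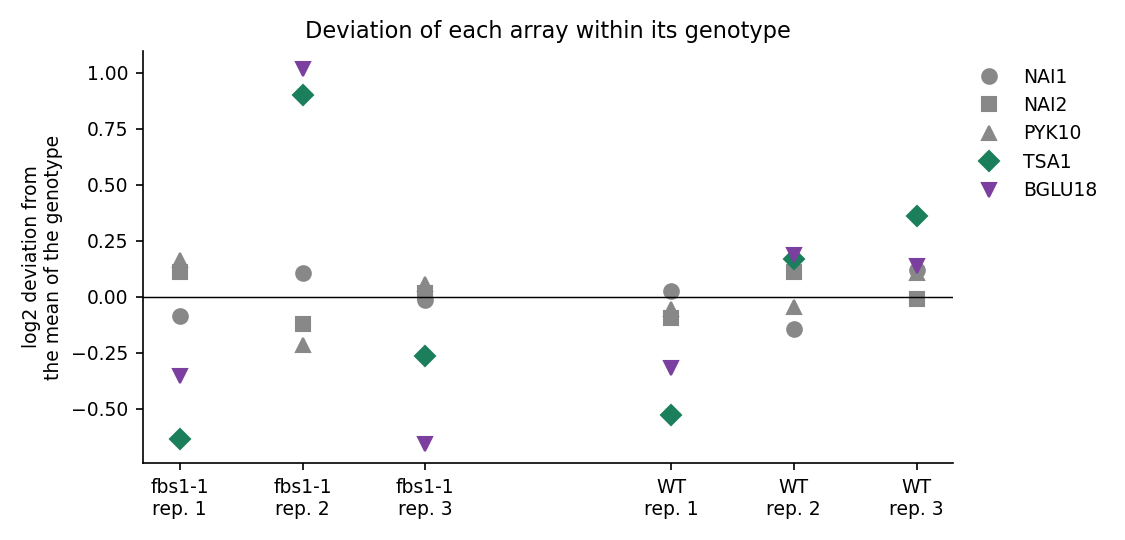
Deviation of each array from the mean of its own genotype, in log2 units, for the 5 ER body genes, with the *fbs1-1* arrays left of the WT arrays. *TSA1* (green diamonds) and *BGLU18* (purple triangles) stand 0.90 and 1.01 above their mean on *fbs1-1* replicate 2, whereas the root genes (grey) stay within 0.22 of theirs on every array.

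Which transcripts behaved most like each gene was asked over 3961 probe sets of 1 named gene with a mean of at least 4, by the root mean square difference of profiles over the 6 arrays, each centred on its own mean. The 3 nearest to *TSA1* were AT3G28270, annotated as a peripheral membrane protein of growth under drought (0.16), AT1G52000, annotated as a mannose-binding lectin (0.26), and AT1G31690, annotated as a copper amine oxidase (0.39). For *BGLU18* they were *MYB47*, an R2R3-MYB transcription factor (0.22), *TSA1* itself (0.52) and AT3G28270 (0.54). From *TSA1*, *BGLU18* was at rank 9. This measure includes the difference between genotypes, which makes up most of the profiles of *TSA1* and *BGLU18*, so their nearest genes necessarily have a similar difference. It was -2.50 for AT3G28270, -2.49 for AT1G52000, -2.81 for AT1G31690 and -3.41 for *MYB47*. The mean was taken over both genotypes, so a gene low in *fbs1-1* could enter through its WT level. AT3G28270 did so, with 2.76, 4.09 and 3.01 in *fbs1-1* and 5.40, 6.09 and 5.86 in WT. *MYB47* and *TSA1* are named through the study's tables, which hold genes it had called. AT3G28270 and AT1G52000 are named by the annotation, but the study also lists both among its JA genes higher in WT. For the root group this measure mostly finds other transcripts that barely vary, since the profiles of these genes deviated from their own means by 0.11 (*NAI1*), 0.10 (*NAI2*) and 0.13 (*PYK10*). The nearest were AT5G42090 to *NAI1* (0.04), *HISN5B* to *NAI2* (0.0146) and AT1G42440 to *PYK10* (0.04).

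*BGLU18* and *TSA1* are neighbours on chromosome 1, with 0 loci between them in the annotation. The 5 loci on each side were therefore examined, of which 4 have a named probe set, and 1 of these passed limma, against 3.25% of all probe sets in either direction. AT1G52420, on the *TSA1* side with AT1G52415 between, had log2 levels of 4.45, 4.54 and 4.60 in *fbs1-1*, against 5.15, 5.02 and 5.35 in WT. All *fbs1-1* arrays were lower, and the difference of -0.64 ± 0.11 (standard error) passed limma with an adjusted p of 0.0194. The call was lost on leaving out any 1 *fbs1-1* array or WT replicate 3, with an adjusted p of up to 0.0750. On the *BGLU18* side none passed. AT1G52360 differed by -0.02 ± 0.13 (adjusted p = 0.963), AT1G52380 by 0.03 ± 0.10 (adjusted p = 0.943), and AT1G52390, next to *BGLU18* and at the low end on all arrays, by -0.09 ± 0.09 (adjusted p = 0.748, limma for all).

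**Figure D3:**
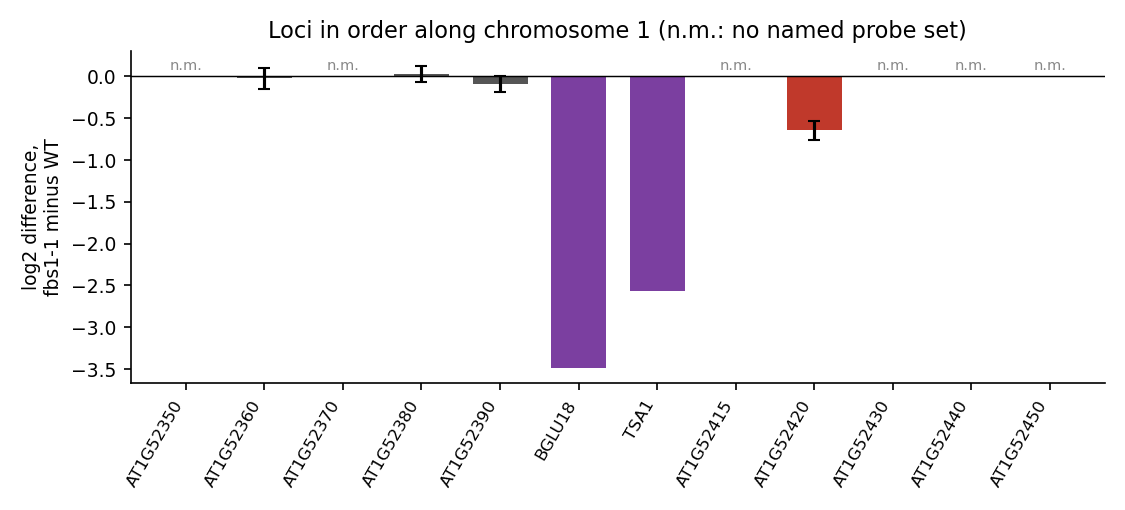
Log2 difference, *fbs1-1* minus WT, of *BGLU18*, *TSA1* (purple, no test) and the 5 loci on each side in the order of the annotation. Error bars are limma standard errors of the 4 neighbours with a named probe set, and AT1G52420 (red) is the neighbour that passed, at -0.64.

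In damaged tissue, *PYK10* gathers into a large complex with jacalin-related lectins (JALs) and GDSL lipase-like proteins. Few other components of ER bodies could be examined. Of 16 further genes of ER bodies and this complex, 5 had a named probe set, and limma called 0 of them, against 3.25% of all probe sets in either direction. None of the 5 had an unadjusted p under 0.05, and rank products called 0. *JAL34* had mean log2 levels of 9.14 ± 0.11 in *fbs1-1* and 8.92 ± 0.07 in WT (SD, n = 3 each). Its *fbs1-1* arrays were all above its WT arrays, by 0.22 ± 0.10, but this did not pass (adjusted p = 0.361). *JAL33* differed by -0.23 ± 0.12 (adjusted p = 0.436) and *JAL22* by 0.06 ± 0.12 (adjusted p = 0.895), both with overlapping arrays. *JAL23* and the lipase-like gene AT1G54020 were at the low end on all 6 arrays. The median difference of the 5 genes was 0.03. The remaining 11 genes, among them *BGLU21* and *BGLU22*, the closest relatives of *PYK10*, were not analysed here. The 3 bHLH genes related to *NAI1* were all at the low end and none passed (limma and rank products 0, unadjusted p under 0.05 in 0).

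*PYK10* and *BGLU18* belong to a family of 47 beta-glucosidase genes (glycoside hydrolase family GH1), most of which act on other glucosides outside ER bodies. Of the 45 other genes, 23 had a named probe set. By limma 3 were higher and 1 was lower in *fbs1-1*, against 1.68% higher and 1.57% lower of all probe sets, and 19 did not pass. The median difference was -0.01 over the 23 genes and 0.01 over all probe sets. *BGLU5* and *BGLU11* are named here through the tables of the study, which hold genes it had called. Over the 21 genes named by the platform annotation, 2 were higher and 0 lower.

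*BGLU44*, for a glucosidase with beta-mannosidase activity, had log2 levels of 6.85, 7.31 and 7.06 in *fbs1-1*, against 5.84, 5.87 and 5.61 in WT. It was higher on every *fbs1-1* array, by 1.30 ± 0.14 (adjusted p = 0.00184). *BGLU15*, for an enzyme that hydrolyses flavonol glycosides, had log2 levels of 5.29, 5.28 and 5.32 in *fbs1-1*, against 4.62, 4.70 and 4.66 in WT. The arrays of a genotype were nearly equal, and the difference was 0.64 ± 0.09 (adjusted p = 0.00676). *BGLU5* had log2 levels of 3.11, 3.20 and 3.04 in *fbs1-1*, against 2.13, 2.09 and 1.97 in WT, and differed by 1.05 ± 0.10 (adjusted p = 0.00096). These 3 calls, all in the opposite direction to *BGLU18*, were kept without any 1 array, with *BGLU15* closest to the threshold at an adjusted p of 0.0437.

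*BGLU11* was the 1 other family member that was lower in *fbs1-1*. Its log2 levels were 3.42, 3.73 and 4.07 in *fbs1-1*, against 4.60, 5.88 and 5.80 in WT, and the genotypes did not overlap. The difference was -1.69 ± 0.32 (adjusted p = 0.0290), less than that of *BGLU18* at -3.49. The call was lost without any 1 array other than WT replicate 1, with an adjusted p of up to 0.105.

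*BGLU28*, which is known to rise in sulfur deficiency, lies next to *BGLU15* on chromosome 2. It had log2 levels of 2.09, 1.96 and 2.88 in *fbs1-1*, against 1.48, 1.17 and 1.37 in WT. All *fbs1-1* arrays were higher, and the difference of 0.97 ± 0.22 just missed the threshold (adjusted p = 0.0596). *BGLU47* also missed it, with 0.51 ± 0.12 (adjusted p = 0.0590), with all 6 of its values at the low end. Among the others that did not pass, those with the highest levels were *BGLU42*, known from iron-starved roots (0.37 ± 0.18, adjusted p = 0.383), *BGLU16* (-0.16 ± 0.10, adjusted p = 0.536), *BGLU40* (-0.21 ± 0.14, adjusted p = 0.583) and *BGLU25* (0.14 ± 0.09, adjusted p = 0.589). Of the 23 genes, 11 were at the low end on all 6 arrays, with differences between -0.22 and 0.51.

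The 8 genes from *BGLU18* to *BGLU25* form the subfamily of *PYK10*, and 6 of them were measured. Besides *BGLU18* and *PYK10* these are *BGLU19*, *BGLU20*, *BGLU24* and *BGLU25*, of which none passed. Their differences were -0.23 for *BGLU19*, 0.00 for *BGLU20*, 0.02 for *BGLU24* and 0.14 for *BGLU25*. *BGLU20* and *BGLU24* were at the low end on all arrays. *BGLU33*, for an enzyme that, like *BGLU18*, releases ABA from its glucose ester, differed by 0.11 ± 0.22 (adjusted p = 0.897).

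**Figure D4:**
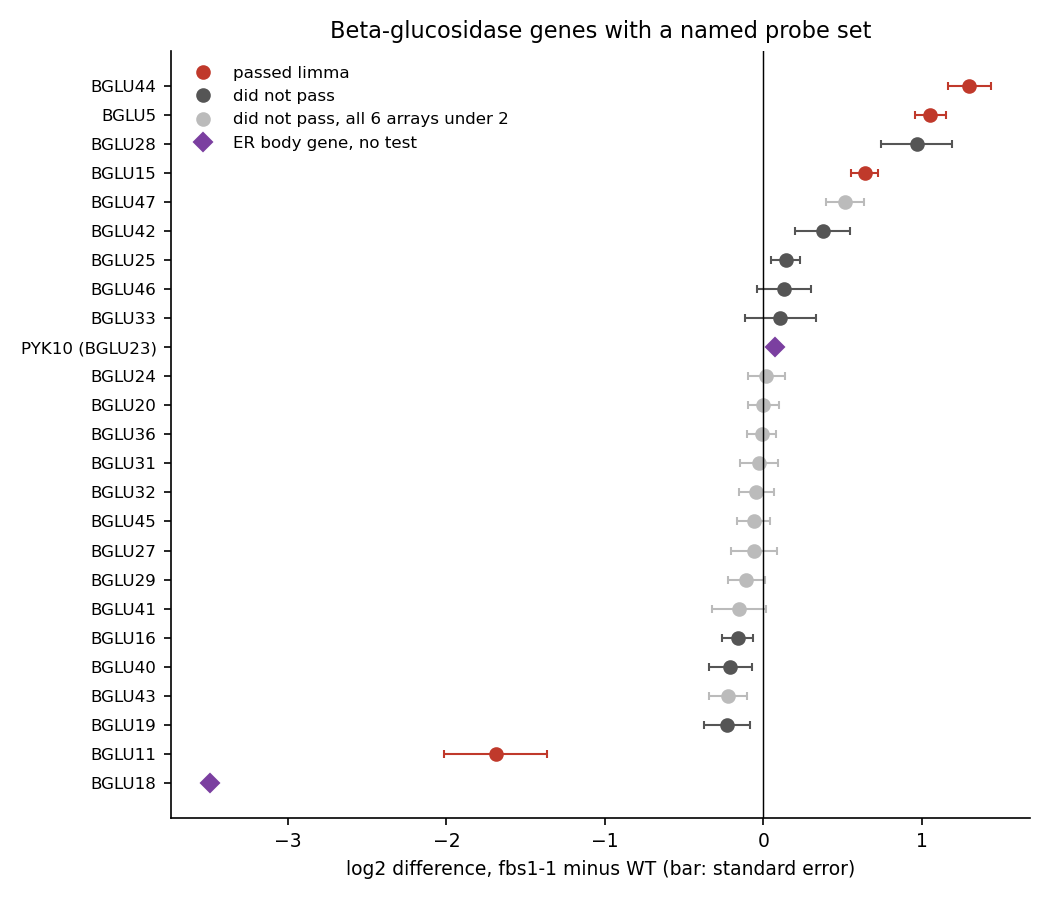
Log2 difference, *fbs1-1* minus WT, of the 23 measured beta-glucosidase genes with their limma standard errors, and of *BGLU18* and *PYK10* (purple diamonds) without a test. Red marks the 4 genes that passed and light grey the 11 at the low end on all arrays. *BGLU18* at -3.49 lies below *BGLU11* at -1.69, whereas *PYK10* at 0.07 lies among the genes that did not pass.

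Genes around the function of ER bodies were compared in the same way. As limma called 3.25% of all probe sets in either direction, lists with 2 measured genes say little either way. Of 12 indole glucosinolate genes 2 were measured. *MYB34*, a transcription factor that activates indole glucosinolate synthesis, had log2 levels of 4.59, 4.50 and 4.39 in *fbs1-1*, against 2.51, 3.44 and 3.55 in WT. It was higher on every *fbs1-1* array, by 1.33 ± 0.25 (adjusted p = 0.0246), but it too is named through the study's tables. The call was lost on leaving out any 1 *fbs1-1* array or WT replicate 2, with an adjusted p of up to 0.0926. *UGT74B1*, for a glucosyltransferase of glucosinolate synthesis, differed by -0.12 ± 0.15 (adjusted p = 0.801). Of 10 genes of ABA and its glucose ester 2 were measured, both for enzymes that attach glucose to ABA. Neither passed, with -0.32 ± 0.17 for *UGT71C5* (adjusted p = 0.443) and -0.26 ± 0.13 for *UGT71B6* (adjusted p = 0.404), none had an unadjusted p under 0.05, and rank products called 0.

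JA, the hormone that induces leaf ER bodies, was represented by 8 measured genes of a list of 21, of which 4 were lower and 0 higher by limma (rank products 4 and 0), against 1.57% lower and 1.68% higher of all probe sets. All 4 are named through the study's tables, so the count is not independent of the study's own choice. Of the 4 named by the annotation 0 passed. An unadjusted p under 0.05 was found for 6 of the 8 genes, among them the 4 that passed. The share of all probe sets at that level was not worked out, so nothing further is read from the 6. *CORI3*, a marker of JA response, had log2 levels of 1.44, 1.64 and 1.85 in *fbs1-1*, against 7.10, 6.76 and 6.76 in WT, with a difference of -5.23 ± 0.14 (adjusted p = 7.61e-07). Its *fbs1-1* values were all at the low end, and unlike *TSA1* and *BGLU18* it was not highest on *fbs1-1* replicate 2. *JAZ6*, a repressor of JA signaling that JA itself induces, differed by -1.45 ± 0.17 (adjusted p = 0.00286), the chlorophyllase gene *CORI1* by -0.98 ± 0.16 (adjusted p = 0.0158) and *JAZ9* by -0.93 ± 0.16 (adjusted p = 0.0173). Within *fbs1-1*, *CORI1* was highest on replicate 2 like *TSA1* and *BGLU18*, with 4.85, 5.34 and 5.13. *JAZ6* and *JAZ9* were highest on *fbs1-1* replicate 3. The calls of *CORI1* (without *fbs1-1* replicate 3, WT replicate 2 or WT replicate 3) and *JAZ9* (without any 1 *fbs1-1* array) were lost on leaving out 1 array, with an adjusted p of up to 0.0752 for *CORI1* and 0.0758 for *JAZ9*, and 2 genes of the list were called lower without *fbs1-1* replicate 3. The thionin gene *THI2.1* differed by -0.56 ± 0.14 (adjusted p = 0.0703) and *JMT*, for the enzyme that methylates JA, by -0.53 ± 0.14 (adjusted p = 0.0887). Both were lower on every *fbs1-1* array, at the low end in both genotypes, and both passed with the run of array numbers as a block (adjusted p = 0.0447 for *THI2.1* and 0.0452 for *JMT*), where 6 of the 8 genes were called lower. *MYC3* and *MYC4*, for transcription factors that activate JA responses, did not pass, with 0.22 ± 0.13 (adjusted p = 0.545) and -0.13 ± 0.14 (adjusted p = 0.768).

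Markers of the endoplasmic reticulum and of organs did not pass the test, but each measured one had a higher mean in *fbs1-1*. The *fbs1-1* arrays all lay above the WT arrays for *CRT2* (gap 0.03), *EXPA7* (gap 0.06) and *SBPASE* (gap 0.07), and overlapped them for the others. The share of all probe sets that lay this way was not worked out, so nothing is read from it. Limma called 3.25% of all probe sets in either direction, so 0 calls among the 2 or 3 measured genes of a list say little. Of 12 ER chaperone genes 2 were measured and 0 passed by limma or rank products, and 1 had an unadjusted p under 0.05. Calreticulin *CRT2* differed by 0.26 ± 0.10 (adjusted p = 0.283) and calnexin *CNX2* by 0.10 ± 0.16 (adjusted p = 0.861). Of 19 root markers 2 were measured, both for expansins of root hairs, and 0 passed. *EXPA7* differed by 0.23 ± 0.11 (adjusted p = 0.377) and *EXPA18* by 0.24 ± 0.13 (adjusted p = 0.494). Their summed linear intensity was between 22.7 and 25.8 on the *fbs1-1* arrays and between 18.3 and 22.3 on the WT arrays. Of 13 leaf markers 3 were measured and 0 passed. Rubisco activase *RCA* differed by 0.09 ± 0.09 (adjusted p = 0.753), the Calvin cycle gene *SBPASE* by 0.12 ± 0.09 (adjusted p = 0.632) and the photorespiration gene *GLDT* by 0.05 ± 0.09 (adjusted p = 0.874). Their summed linear intensity was between 4926.6 and 5173.8 on the *fbs1-1* arrays and between 4725.0 and 4876.6 on the WT arrays. No root or leaf marker had an unadjusted p under 0.05, and rank products called 0. The part of organ proportions in the difference of the leaf pair was not tested.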

How the data were processed

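RNA of 3 *fbs1-1* and 3 WT samples was hybridized to ATH1 arrays, and samples were grouped by the titles in the labels. The authors normalized the arrays in R with Robust Multi-Array (RMA) and deposited log2 intensities per probe set. Versions are not given in the sources used here. RMA draws low signals together, so differences of dim genes are understated. Arrays have no read depth, and their number limits the precision. The labels call the replicates biological, and each was 1 pool of seedlings.

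Control probe sets (64) were left out, and 22746 probe sets were fitted with limma 3.58.1 in R 4.3.3, with genotype as the only term, empirical Bayes moderation and Benjamini-Hochberg adjustment, at 0.05. The methods of the study name rank products. Here limma was the main test because it gives a standard error, and rank products (9 pairs of arrays, 100 permutations, percentage of false prediction under 0.05) were an alternative, written anew in Python 3.11.15 (numpy 2.4.6, pandas 2.3.3). Both were tested on simulated data. The share of all probe sets with an unadjusted p under 0.05 was not worked out, so counts at that level have no background. Figures used matplotlib 3.10.9.

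Probe sets were named through GEO's annotation of the platform. A further 234 were named through the study's tables, which hold called genes. This applies to *TSA1*, *BGLU18*, *BGLU5*, *BGLU11*, *MYB34*, *MYB47*, *JAZ6*, *JAZ9*, *CORI1* and *CORI3*. Of the annotation's 14016 probe sets 503 name several genes and were not used for naming. Where several probe sets name a gene, the one with the highest mean stands for it. Gene order came from RefSeq's TAIR10.1 annotation, and no coordinates are given.

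The 5 genes and all lists were chosen with earlier results of these data known. Named genes are the 5 genes, their 3 nearest profiles, measured neighbours, beta-glucosidase and ER body genes that passed with the 4 highest that did not, and up to 4 passing and 2 other genes of each further list. *BGLU19*, *BGLU20*, *BGLU24*, *BGLU28*, *BGLU33*, *BGLU47*, *GLDT*, *THI2.1* and *JMT* were added after their values were seen. Alternatives were other scalings, filters on low (below the 40th percentile) and shared probe sets, blocks for array number and replicate, and each array left out.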

Additional observations from a re-analysis of the deposited data

How the results depend on the processing

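Without any 1 array, the difference lay between -3.02 and -2.25 for *TSA1* and between -4.00 and -3.16 for *BGLU18*. Its sign could not change there, since every *fbs1-1* array was below every WT array. The blocks and the probe set filters left these differences as they were, so they are no check of them. The leaf pair relative to the root group lay between -3.56 and -2.76 without any 1 array. Quantile normalization gave -3.03 for this contrast. The differences of *NAI1* (-0.16 to -0.03), *NAI2* (0.01 to 0.13) and *PYK10* (-0.01 to 0.18) stayed small on leaving out 1 array. In the second run of array numbers alone, *NAI2* and *PYK10* both differed by -0.04, outside these ranges. Calls depended more on the arrays used. Limma called 382 probe sets higher and 358 lower with all 6 arrays, and between 140 and 319 higher and between 142 and 338 lower without any 1 array. The losses were over 1.5-fold without *fbs1-1* replicate 1 (216 lower), *fbs1-1* replicate 2 (169 higher, 197 lower), *fbs1-1* replicate 3 (140 higher, 142 lower), WT replicate 2 (207 higher, 206 lower) and WT replicate 3 (194 higher, 161 lower). With the run of array numbers as a block it called 650 higher and 569 lower, and rank products called 254 higher and 269 lower. Without any 1 array, beta-glucosidase genes called lower numbered 0 to 1 and higher 3 to 4, indole glucosinolate genes higher 0 to 1, and JA genes lower 2 to 5. With the run of array numbers as a block 6 JA genes were called lower, and 5 with arrays centred on their medians, where *THI2.1* passed (0.0487). *JMT* passed without WT replicate 1 (0.0375). AT1G52420 did not pass in the second run of array numbers alone (adjusted p = 0.0757). *BGLU28* passed with arrays centred on their medians (0.0488) and with the replicate block (0.0247), and *BGLU47* with quantile normalization (0.0388), with the run of array numbers as a block (0.0342), in the second run alone (0.0401) and without WT replicate 1 (0.0208). The cause was not tested. Replicate numbers were shared by the genotypes, and the deviations of same-numbered samples correlated at 0.282, 0.088 and 0.144. As *fbs1-1* replicate 2 correlated better with WT replicate 3 (0.135), the numbers were not taken as pairs. Replicate 1 of each genotype, the first run of array numbers, correlated negatively with replicates 2 and 3 of the other genotype (-0.233 to -0.16). Deviations within a genotype sum to 0, so these negative values largely follow from the 0.282 and add little to it. The main fit had no term for the run of array numbers. With the replicate block limma called 541 higher and 487 lower. Probe sets at the low end limit what can be said of 11 of the 23 beta-glucosidase genes.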

Other observations

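The raised level of the leaf pair on *fbs1-1* replicate 2 was shared by few other transcripts. On this array 17 probe sets (0.0747% of all) lay at least 1 log2 unit above both other *fbs1-1* arrays, 11 of them with a named gene. *BGLU18* exceeded the next *fbs1-1* array by 1.37 and *TSA1* by 1.17, ranks 9 and 13 of the 17. The highest was *PCC1*, a pathogen and circadian controlled gene, with log2 levels of 6.17, 8.58 and 6.53 in *fbs1-1* and 6.98, 9.19 and 9.17 in WT. *DFR*, for an enzyme of anthocyanin synthesis, had 2.46, 4.38 and 3.20 in *fbs1-1* and 2.83, 3.44 and 3.16 in WT. AT3G28270, picked on these same arrays as the nearest profile to *TSA1*, had 2.76, 4.09 and 3.01 in *fbs1-1* and 5.40, 6.09 and 5.86 in WT. The other arrays had between 0 (WT replicate 2) and 38 (WT replicate 1) probe sets that stood as far above both others of their genotype. *DFR* and *PCC1* were named after their values were seen.

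Some genes of the beta-glucosidase family are neighbours among protein-coding loci. *BGLU15*, *BGLU28* and *BGLU29* follow each other on chromosome 2, with 1 locus that is not protein-coding between *BGLU28* and *BGLU29*. They had differences of 0.64 for *BGLU15*, 0.97 for *BGLU28* and -0.11 for *BGLU29*, and only *BGLU15* passed limma. *BGLU43* and *BGLU44* follow each other on chromosome 3, again with 1 such locus between them, and differed by -0.22 for *BGLU43* (adjusted p = 0.462) and by 1.30 for *BGLU44* (adjusted p = 0.00184, limma). *BGLU29* and *BGLU43* were at the low end on all 6 arrays, where a difference may not be seen.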
